A study of Mus musculus with 32 samples.

Results

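The libraries described here are those of Nfkbiz f/f chondrocytes given adenovirus that expresses Cre and eGFP (Cre virus), 2 without and 2 with IL-1β, and they are 4 of the 32 RNA sequencing libraries of the study. They were chosen by their labels, genotype and treatment, and by no measured value. Their response to IL-1β was set beside that of cells of the same genotype given adenovirus that expresses eGFP only (GFP virus), again 2 libraries without and 2 with IL-1β, to ask which changes persisted, vanished or appeared once the floxed gene had met Cre. All 8 libraries came from primary chondrocytes of the sternum of newborn C57BL/6 pups with both Nfkbiz alleles floxed, and IL-1β was given at 10 ng/mL for 24 h. Cre entered by a virus added to the culture rather than from a gene of the mouse, and the effect of Cre itself cannot be told apart from that of the deletion in these 8 libraries. Chondrocytes of Ldha f/f and Nampt f/f mice, 16 libraries given the same viruses and the same IL-1β, served 2 ends. They served to choose genes without use of the Nfkbiz f/f libraries, apart from the filter on low counts, and to compare the effect of Cre across lines. The labels do not say whether the 2 libraries of a group came from separate cultures or animals, so p-values measure the spread between these libraries, which may be technical.

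IL-1β is a cytokine that, through its receptor Il1r1, the adaptor Myd88 and the kinases of the Irak family, switches on the transcription factors NF-κB and AP-1. In cartilage it makes chondrocytes secrete chemokines, acute-phase proteins and matrix-degrading proteases and lowers the expression of the matrix genes. Nfkbiz encodes IκB-ζ, a nuclear member of the IκB family that is itself induced by NF-κB and, bound to NF-κB on chromatin, is needed in macrophages for a late wave of genes such as Lcn2 and Il6.

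The library totals ranged from 20625238 to 25632928 counts. The 8 chondrocyte markers checked (Col2a1, Acan, Sox9, Col9a1, Matn1, Hapln1, Comp, Cnmd) summed to between 25897 and 79854 CPM (counts of a gene relative to the library total after TMM scaling) in the 8 libraries. The markers of other cells were low: 10 leukocyte markers summed to between 23.7 and 55.8 CPM, 8 endothelial markers to between 5.40 and 10.1 CPM, 7 neutrophil markers to between 1.46 and 7.5 CPM with Ly6g at 0 in all 8 libraries, and 8 fibroblast markers to between 769 and 1208 CPM. The leukocyte sum was higher with IL-1β after both viruses, from between 23.7 and 24.1 CPM up to between 46.5 and 48.3 CPM after GFP and from between 25.4 and 30.0 CPM to between 50.03 and 55.8 CPM after Cre. Most of this rise was Cd68, with 341 and 290 counts in GFP and 778 and 863 in GFP + IL-1β. Its counts were 469 and 424 in Cre and 1080 and 990 in Cre + IL-1β. Only 1 of the 7 leukocyte markers tested rose after each virus by the test given below. The sum of 8 skeletal muscle markers was lower with IL-1β, between 11.9 and 14.2 CPM against between 74.6 and 88.3 CPM after GFP, and between 19.3 and 21.5 CPM against between 66.5 and 85.3 CPM after Cre. Most of this fall was Tnnt3, with 1894 and 1683 counts in GFP and 187 and 264 in GFP + IL-1β. Its counts were 1373 and 1778 in Cre and 388 and 336 in Cre + IL-1β. Of 3 muscle markers tested 2 fell after GFP and 1 after Cre. Both sums moved mostly by 1 gene, so they do not show a change in the number of cells of a type. In such bulk samples fewer cells of a type and less RNA per cell cannot be told apart. Replicate 2 of Cre + IL-1β stood apart: mitochondrially encoded genes held 0.538% of its counts and between 1.39% and 2.19% in the other 7 libraries, and the noncoding RNA Gm26917 held 11.87% against between 5.14% and 8.48%. The overall counts are also given without this library. Genes are named by their symbols, and Nfkb2, Irak3, Il1rap, Tapbp, Bcl3, Cxcl10, Smpd3, Padi2, Timp3, Lctl, Car9, Clmp, Slc2a1, Hk1, Cebpb, Penk, Emb, Ccnd1, Palm3, Mkrn2 and Eml5 overlap a gene on the opposite strand; the use of strand in counting is not stated, so reads of the pair cannot be told apart.

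Nfkbiz itself (chr16:55811375-55838899, minus strand, GRCm38) was lower after Cre but not absent. Its level was 15.6 and 16.5 CPM in the 2 GFP libraries, 231 and 224 CPM in GFP + IL-1β, 9.31 and 7.96 CPM in Cre and 28.6 and 31.3 CPM in Cre + IL-1β. The ranges of the 4 groups did not overlap. With IL-1β, the log2 fold change was 3.82 (SE 0.11) after GFP and 1.79 (SE 0.11; edgeR quasi-likelihood test, adjusted p = 5.43e-07) after Cre, a difference of -2.03 (SE 0.15, edgeR, adjusted p = 1.07e-05). Reads were counted per gene, so transcripts from cells that kept the allele cannot be told apart from transcripts of the exons that deletion leaves. The response of Nfkbiz was also called as smaller after Cre in the Ldha f/f and Nampt f/f lines, where another gene is floxed, as given further below. Its difference is therefore not a measure of deletion alone, and the part of deletion in it was not tested.

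Of 15356 genes tested, 1804 (11.7%) rose and 1587 (10.3%) fell with IL-1β after Cre, and 2330 (15.2%) rose and 1790 (11.7%) fell after GFP. Every count over a gene list below is to be read beside these shares of all genes. A count near them says nothing particular about its list. Here and below a gene is called, and written as having risen or fallen, at a Benjamini-Hochberg adjusted p of 0.05 or less in edgeR's quasi-likelihood test over all genes tested, fitted on the 8 libraries. Log2 fold changes compare IL-1β with no IL-1β, and the difference is the response after Cre minus the response after GFP, tested as the interaction term of the same fit. The 2 responses share no library. The difference was called for 797 genes, 259 (1.69%) with the higher value after Cre and 538 (3.5%) with the lower. Without Cre + IL-1β replicate 2, 2265 genes were called after Cre and 820 in the difference. Without Cre replicate 2, 1523 were called after Cre. The difference was called for 1892 genes without Cre + IL-1β replicate 1, and for 467, 430, 344 and 396 without GFP replicate 1, GFP replicate 2, GFP + IL-1β replicate 1 and GFP + IL-1β replicate 2. After GFP, 2563, 2487 and 2547 genes were called without GFP replicate 1, GFP + IL-1β replicate 1 and GFP + IL-1β replicate 2.

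The 4120 genes called after GFP were sorted by these 3 tests. The response was kept, called after Cre with the same sign, in 1967 genes, which are 47.7% of those called after GFP and 58.0% of those called after Cre. Of these, 1712 had no called difference (median log2 fold change 0.86 after GFP and 0.76 after Cre in the 913 that rose, -0.69 and -0.62 in the 799 that fell), 244 were smaller after Cre (181 that rose, median 2.14 and 0.94; 63 that fell, -1.76 and -0.81) and 11 were larger. The response was lost, not called after Cre with a called difference against it, in 369 genes, 263 that had risen and 106 that had fallen after GFP. It turned, with calls of opposite sign, in 69 genes, of which 50 rose after GFP and fell after Cre. For 1715 further genes the response was called after GFP only and the difference was not called, so that these data do not resolve whether it was lost. A response was gained, called after Cre only with a called difference, in 99 genes, 62 higher and 37 lower. Another 1256 genes were called after Cre only with no called difference. Without Cre + IL-1β replicate 2 the counts were 1685 kept, 435 lost, 57 turned and 75 gained, and 1224 of the 1712 genes kept with no called difference, 199 of the 244 kept and smaller, 301 of the 369 lost, 48 of the 69 turned and 59 of the 99 gained were in the same class. Without Cre replicate 2 they were 1168 kept, 28 turned and 49 gained, and without Cre + IL-1β replicate 1 they were 629 lost, 148 turned and 690 gained. Without GFP replicate 1 there were 223 lost, 35 turned and 63 gained, without GFP replicate 2 191, 36 and 41, without GFP + IL-1β replicate 1 159, 29 and 42 (and 1306 kept), and without GFP + IL-1β replicate 2 184, 32 and 42. The plot of the 2 responses against each other shows the classes.

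**Figure D1:**
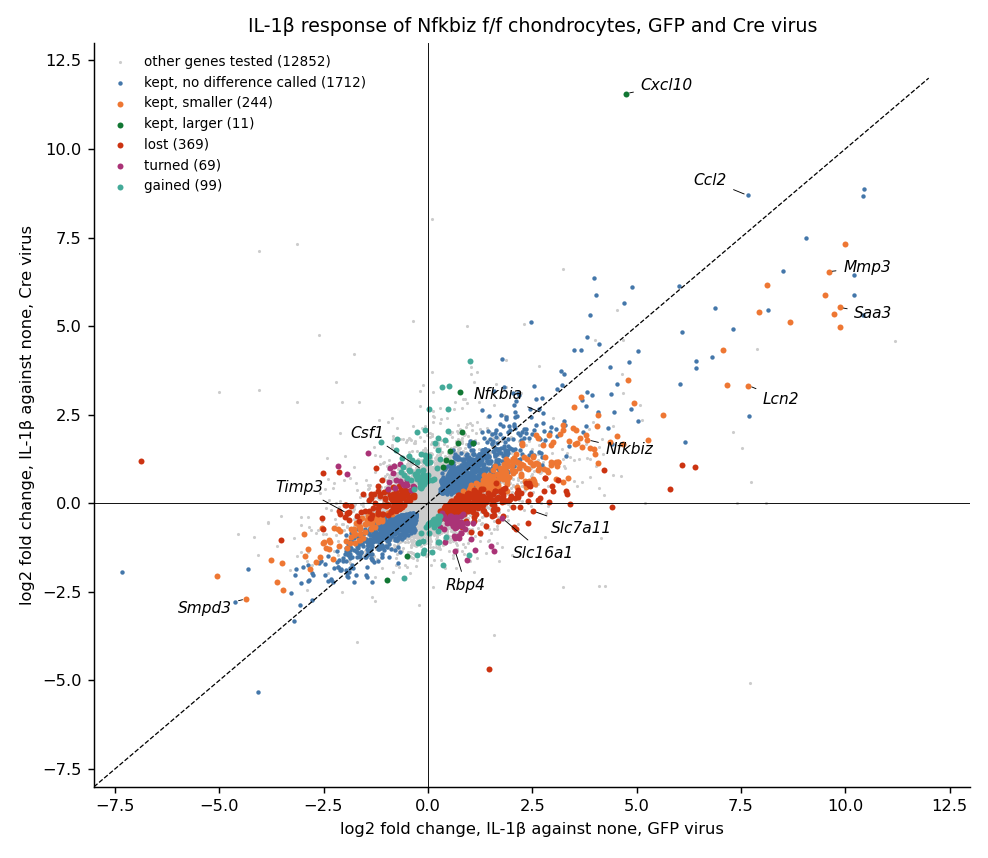
Log2 fold change with IL-1β after GFP virus (horizontal axis) and after Cre virus (vertical axis) for the 15356 genes tested, 1 point per gene, coloured by class, with the line of equal response dashed. Among the genes highest after GFP, those kept and smaller (orange: Lcn2, Saa3, Mmp3) lie under the line beside genes kept with no called difference (blue: Ccl2, Nfkbia), and lost genes (red) lie along the horizontal axis; the height of Cxcl10 depends on the prior count, since it had no count in the Cre libraries.

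Since many of these genes were called in the GFP libraries of the same line, the response left after Cre was also read on genes chosen elsewhere. In the 8 GFP libraries of the Ldha f/f and Nampt f/f lines IL-1β changed 8255 of 15760 genes tested (52.4%). There 1161 genes rose by at least 1 on the log2 scale, and 918 of them were tested here. A gene was tested with over 1 CPM in any 1 of the Nfkbiz f/f libraries, so it could enter through GFP + IL-1β alone. The counts after GFP and Cre in this paragraph are therefore not wholly free of the Nfkbiz f/f libraries. Of the 918, 674 (73.4%) rose after GFP and 452 (49.2%) after Cre in Nfkbiz f/f cells. The median log2 fold change was 1.61 after GFP and 0.93 after Cre. The difference was called as smaller after Cre for 238 of the 918 and as larger for 9. Of the 577 that fell there by at least 1, 439 fell after GFP and 301 after Cre, with medians of -1.22 and -0.73, and the difference was called as smaller for 95 and as larger for 3. Of the 85 that rose there by at least 3 on the log2 scale, 83 rose after GFP and 62 after Cre, and the medians were 4.80 and 3.13. Of all genes chosen in those lines at any size, 2492 were called after Cre with the same sign, 1852 without Cre + IL-1β replicate 2 and 1304 without Cre replicate 2.

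The genes kept with no called difference included most NF-κB feedback genes. Of 28 genes of NF-κB subunits and feedback tested, 20 rose after GFP and 21 after Cre, and 18 were kept with no called difference. The median log2 fold change was 0.86 after GFP and 0.83 after Cre, beside 11.7% of all genes that rose after Cre. Nfkbia, which encodes the inhibitor IκBα that NF-κB itself induces, was at 11.8 and 12.6 CPM in GFP, 81.4 and 82.9 CPM in GFP + IL-1β, 11.4 and 12.0 CPM in Cre and 64.1 and 72.5 CPM in Cre + IL-1β. Both libraries with IL-1β lay well above both without it for each virus, and its response after Cre was 2.54 (log2, SE 0.11, edgeR, adjusted p = 1.77e-08) with a difference from GFP of -0.21 (SE 0.15, edgeR, adjusted p = 0.532). Tnfaip3, the ubiquitin-editing brake on NF-κB, rose by 2.58 after GFP and 2.95 after Cre on the log2 scale, Relb by 1.38 and 1.54, Nfkb2 by 0.93 and 1.27, and the apoptosis inhibitor Birc3 by 2.34 and 2.10. Bcl3, another nuclear IκB protein, stood at 129.9 and 125 CPM in GFP + IL-1β and 57.7 and 60.7 CPM in Cre + IL-1β, from at most 8.07 CPM, and its difference was not called (-1.18, SE 0.35, edgeR, adjusted p = 0.0793). The member called as smaller after Cre was Zc3h12a, which encodes the RNase Regnase-1 that degrades cytokine mRNAs (4.80 after GFP and 3.48 after Cre). Nfkbie, which encodes IκBε, was the 1 member gained. Without Cre + IL-1β replicate 2, 20 of the 28 rose after Cre. The difference was called as lower for 3 members without Cre replicate 2 and as higher for 4 without Cre + IL-1β replicate 1.

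Fewer genes of the receptor pathway upstream of NF-κB were called as risen after Cre than after GFP. Of 18 genes of IL-1 receptor signalling tested, 9 rose after GFP, beside 15.2% of all genes, and 4 after Cre, beside 11.7%. For 3, the lost ones, the difference was called as lower, beside 3.5% of all genes. Il1r1, the signalling receptor, stood at 47.3 and 43.0 CPM in GFP + IL-1β and 15.8 and 15.2 CPM in Cre + IL-1β, with 15.8 and 13.7 CPM in GFP and 13.0 and 11.5 CPM in Cre. Its response was 1.61 after GFP and 0.34 after Cre on the log2 scale, and the difference was called (edgeR, adjusted p = 0.00105). The other lost members were Irak3, a kinase-dead inhibitor of the pathway (2.97 and 0.48), and the coreceptor Il1rap (1.79 and 0.40). The call of the difference of Il1rap was lost without GFP replicate 1, GFP + IL-1β replicate 1 or 2 or Cre replicate 2 (edgeR, adjusted p between 0.0614 and 0.0959). The receptor chain of IL-33, Il1rl1, was kept (2.05 and 2.77).

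Of the chemokines, those of the CC family had no called difference. Of 8 tested, 5 rose after GFP and 4 after Cre, and these 4 were kept. Without Cre replicate 1, Cre + IL-1β replicate 1 or Cre + IL-1β replicate 2 the difference was called for 1 of the 8. Ccl2, which recruits monocytes, went from 0.397 and 0.398 CPM in Cre to 211 and 122 CPM in Cre + IL-1β, and from 1.46 and 1.44 CPM in GFP to 287 and 301 CPM in GFP + IL-1β. The Cre + IL-1β libraries were both under the GFP + IL-1β libraries, and the Cre libraries under the GFP libraries, and the difference of the responses was 1.03 (log2, SE 0.55, edgeR, adjusted p = 0.374). Ccl20 had no count in the 2 Cre libraries together and 122 in Cre + IL-1β, which is at least 38.6-fold higher against a floor of 3 counts over the group; after GFP it was at least 118-fold higher. Among 12 CXC and CX3C chemokines, which chiefly attract neutrophils or T cells, 9 rose after GFP and 8 after Cre, 4 differences were called as lower after Cre (2 without Cre replicate 1) and 1 as higher. The neutrophil attractant Cxcl1 reached 570.1 and 519 CPM in GFP + IL-1β and 47.2 and 39.6 CPM in Cre + IL-1β, from at most 0.534 CPM in the other 4 libraries. Its response was smaller after Cre (10.00 and 7.33, edgeR, adjusted p = 0.00904 for the difference), a call that was lost without Cre replicate 1 (difference -2.11, edgeR, adjusted p = 0.202). Cxcl5 was also smaller (8.69 and 5.12). Their near neighbours Cxcl2 and Cxcl3 were low after Cre. Cxcl2 was at 48.9 and 46.6 CPM in GFP + IL-1β and 6.01 and 3.32 CPM in Cre + IL-1β, the latter 106-fold above Cre (95% interval 28.9 to 879, from 2 and 223 counts), and Cxcl3 was at 29.0 and 21.3 CPM and 0.876 and 1.05 CPM, at least 14.5-fold above Cre.

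Among the cytokines Il6, the interleukin that drives acute-phase synthesis, stood at 0.626 and 0.968 CPM in Cre + IL-1β against 32.7 and 32.9 CPM in GFP + IL-1β. With 2 counts in Cre and 38 in Cre + IL-1β its response was still 18.0-fold (95% interval 4.66 to 154, counting error only), and the difference of the responses was not called (edgeR, adjusted p = 0.399). Its level with IL-1β was far lower after Cre, while the ratio to the level without IL-1β could not be told apart from that after GFP at this depth. Il12b, a subunit of IL-12 and IL-23, was at 2.31 and 2.13 CPM in GFP + IL-1β and 0.292 and 0.168 CPM in Cre + IL-1β. Its difference was called (edgeR, adjusted p = 0.0452), a call on few counts that was lost without any one library except Cre + IL-1β replicate 1 (edgeR, adjusted p between 0.0697 and 0.235).

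MHC class I presentation, by which cells display peptides to CD8 T cells, rose after both viruses. Of 24 genes tested, 16 rose after GFP and 16 after Cre, beside 15.2% and 11.7% of all genes. Of the 24, 14 were kept with no called difference, and the median log2 fold change of the 24 was 0.75 after GFP and 1.01 after Cre. After GFP 10 rose, and 9 were kept with no called difference, without GFP replicate 2 or GFP + IL-1β replicate 2. After Cre 14 rose without Cre + IL-1β replicate 2. Tapbp, the chaperone that loads peptides, was at 67.2 and 67.8 CPM in GFP, 231 and 240.3 CPM in GFP + IL-1β, 67.6 and 63.1 CPM in Cre and 281 and 313 CPM in Cre + IL-1β. Both Cre + IL-1β libraries were above both GFP + IL-1β libraries, but the difference of the responses was not called (0.38, SE 0.14, edgeR, adjusted p = 0.151). The heavy chain H2-K1 rose by 1.73 and 1.96, H2-D1 by 1.35 and 1.83, and the transactivator Nlrc5 by 1.94 and 2.18 on the log2 scale; reads of H2 genes can be shared among near-identical copies. The class II invariant chain Cd74 was among the 5 genes of smallest p in the class, with 61.8 and 65.7 CPM in GFP + IL-1β and 139 and 146 CPM in Cre + IL-1β. Of 22 interferon-stimulated genes 4 rose after GFP and 5 after Cre, beside 15.2% and 11.7% of all genes, with no called difference (1 without Cre + IL-1β replicate 2). The summed leukocyte markers were higher with IL-1β after both viruses, mostly through Cd68 as given above, and the part of leukocytes in these levels was not tested. Of 28 genes of cell division 14 rose after GFP and 17 after Cre, beside the same 15.2% and 11.7% of all genes, and 11 were kept with no called difference (7 without GFP replicate 2). After Cre 11 of them rose without Cre replicate 2 and 14 without Cre + IL-1β replicate 2, and after GFP 8, 9 and 9 rose without GFP replicate 1, GFP replicate 2 and GFP + IL-1β replicate 2. Of 20 p53 targets 4 rose and 5 fell after GFP, beside 15.2% and 11.7% of all genes, and 6 rose and 2 fell after Cre, beside 11.7% and 10.3%. Of these falls 1 to 3 were called after GFP without any one of the 4 libraries with GFP virus, and after Cre none was called without Cre + IL-1β replicate 2 and 1 without either Cre or either GFP + IL-1β library.

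The fall of the cartilage matrix was kept too. Of 34 cartilage matrix genes tested, 24 fell after GFP and 27 after Cre, beside 10.3% of all genes that fell after Cre, and 23 were kept with no called difference (median of the 34, -1.18 after GFP and -1.01 after Cre). Without Cre + IL-1β replicate 2, 24 fell after Cre. Matn1, a cartilage matrix protein, was at 74.9 and 79.6 CPM in GFP and 16.9 and 14.3 CPM in GFP + IL-1β, and at 69.8 and 65.8 CPM in Cre and 15.3 and 15.4 CPM in Cre + IL-1β. The levels with IL-1β overlapped between the viruses, and the log2 fold changes were -2.31 and -2.14 (SE 0.11, edgeR, adjusted p = 1.05e-07). Col2a1, the chief cartilage collagen, had log2 fold changes of -1.38 after GFP and -0.90 after Cre, and Acan, the large proteoglycan aggrecan, of -2.13 and -1.60. Neither difference was called (edgeR, adjusted p = 0.236 and 0.263). The test against the Ldha f/f and Nampt f/f lines, given further below, was called as higher for 15 of the 34 genes and as lower for 2. Of all 16727 genes in that test, 1188 were called as higher and 1090 as lower. The genes that fell after Cre with the smallest p also included Snorc (-2.07), a chondrocyte membrane proteoglycan, Chrdl1 (-2.18), a BMP antagonist, G0s2 (-1.64), an inhibitor of fat lipolysis, and Ncmap (-1.83). Their differences from GFP lay between -0.15 and 0.33 and none was called.

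Part of the fall was smaller after Cre. Smpd3, the neutral sphingomyelinase needed for mineralisation of cartilage, went from 101 and 103 CPM to 4.82 and 5.11 CPM after GFP and from 103 and 93.0 CPM to 15.7 and 14.5 CPM after Cre. The 2 Cre + IL-1β libraries lay above the 2 GFP + IL-1β libraries and far below all 4 without IL-1β, with log2 fold changes of -4.36 and -2.70 (difference 1.66, SE 0.15, edgeR, adjusted p = 5.19e-05). The other members named by their p were the natriuretic peptide clearance receptor Npr3 (-2.55 and -0.69), the protein deiminase Padi2 (-3.76 and -1.59), Cthrc1 (-2.96 and -0.87) and the matricellular Smoc2 (-2.48 and -1.10). The secreted C1qtnf3 (-3.48 and -2.46) and the zinc finger gene Zim1 (-2.82 and -1.84), both among the 8 genes of smallest p that fell after Cre, were also in this class. Matn3 (-2.58 and -1.52) was 1 of 3 cartilage matrix genes in this class, which held 6 without Cre + IL-1β replicate 2 and 5 without Cre + IL-1β replicate 1. Of 20 chondrocyte transcription factors and hypertrophy genes 10 fell after GFP and 9 after Cre; Sox9, the master regulator of the chondrocyte, had log2 fold changes of -0.82 and -0.51, the latter not called without Cre replicate 1 (-0.36, edgeR, adjusted p = 0.0746). Of 24 regulators of Wnt, BMP and IGF 7 rose and 7 fell after GFP, and 5 rose (3 without Cre replicate 2) and 10 fell after Cre.

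Of 20 acute-phase and antimicrobial genes tested, 10 kept a response of smaller size. After GFP 17 rose and after Cre 13, and the difference was called as lower after Cre for 11, beside 3.5% of all genes. Their median log2 fold change was 3.58 after GFP and 2.43 after Cre, or 1.5 after Cre with genes that had no count without IL-1β set at their lower bound. Lcn2, the siderophore-binding lipocalin 2, was at 35.0 and 36.0 CPM in GFP, 7203 and 7379 CPM in GFP + IL-1β, 25.1 and 27.9 CPM in Cre and 313 and 217 CPM in Cre + IL-1β. Both Cre + IL-1β libraries were far below both GFP + IL-1β libraries and still above all 4 without IL-1β. The response was 7.68 after GFP and 3.32 after Cre, a difference of -4.36 (log2, SE 0.22, edgeR, adjusted p = 4.63e-07). Saa3, serum amyloid A3, showed the same order, with 3568 and 3660.3 CPM in GFP + IL-1β, 218 and 170.1 CPM in Cre + IL-1β and at most 4.38 CPM in the other 4 libraries (difference -4.34, SE 0.22, edgeR, adjusted p = 4.54e-07). Chil1, the chitinase-like protein YKL-40 that marks inflamed cartilage, reached 5962 and 6098 CPM in GFP + IL-1β and 339.8 and 288 CPM in Cre + IL-1β (difference -3.83, SE 0.16, edgeR, adjusted p = 1.24e-07). The metalloreductase Steap4 reached 732 and 728 CPM and 24.9 and 17.0 CPM, from at most 0.973 CPM (difference -4.89, SE 0.56).

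Hp, haptoglobin, rose by 9.51 after GFP and 5.89 after Cre on the log2 scale, the secreted protease inhibitor Slpi by 7.08 and 4.34, and the lipopolysaccharide-binding protein Lbp by 7.93 and 5.39. These stayed among the 8 genes of smallest p that rose after Cre, although each difference was called. Vnn1, the pantetheinase vanin 1, rose by 5.28 and 1.80, and the vasopressin receptor Avpr1a by 3.23 and 0.59. Of 16 complement genes 9 rose after GFP and 7 after Cre (5 without Cre + IL-1β replicate 2), with 5 differences called as lower. C3, the central complement protein, kept a level of 178 and 175 CPM in Cre + IL-1β against 924 and 872 CPM in GFP + IL-1β and had the smallest p of all genes after Cre (6.15, SE 0.14, edgeR, adjusted p = 9.33e-11). Of 10 genes reported as IκB-ζ targets in other cells, 7 rose after GFP and 5 after Cre, 4 differences were called as lower and the median was 5.04 after GFP and 1.44 after Cre. Without Cre replicate 2 the median after Cre was 2.31, and 3 differences were called as lower without any one library except Cre + IL-1β replicate 1. Ccl2, one of them, was kept as described above, while the C/EBP factor Cebpd was at 389 and 375 CPM in GFP + IL-1β and 62.5 and 71.7 CPM in Cre + IL-1β (log2 fold changes 3.70 and 1.58). The plot of 16 genes shows these levels library by library.

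**Figure D2:**
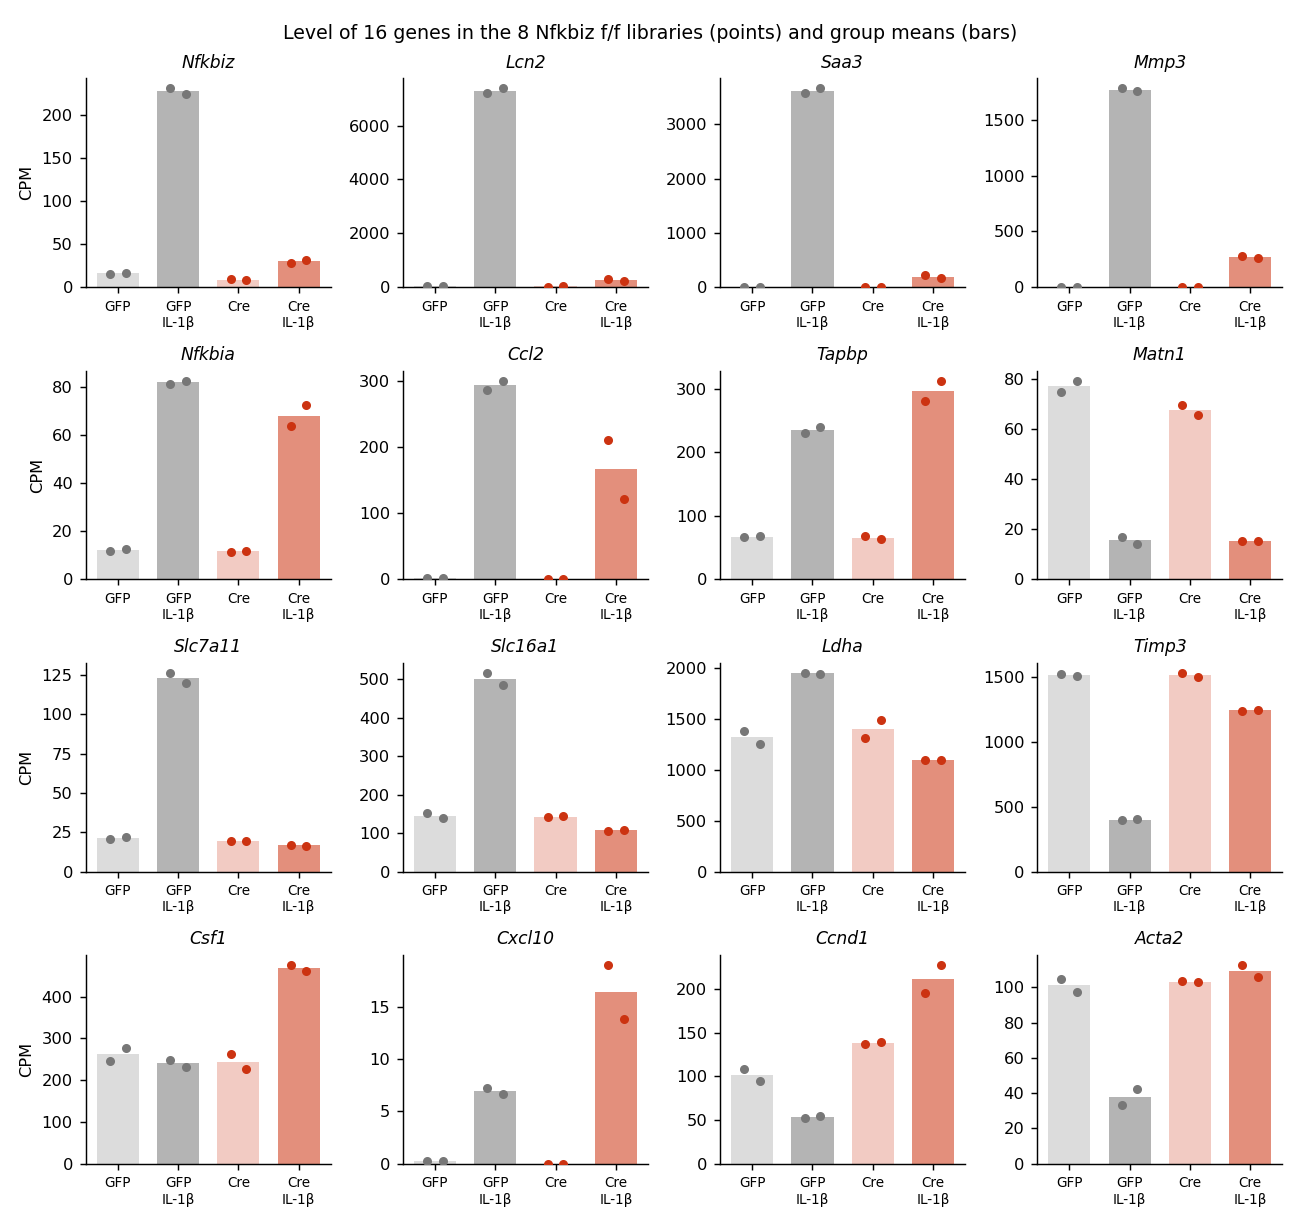
Level in CPM (vertical axes, each from 0) of 16 genes in the 8 Nfkbiz f/f libraries, with points for the 2 libraries of each group and bars for their mean. Nfkbiz, Lcn2, Saa3 and Mmp3 are far lower in Cre + IL-1β than in GFP + IL-1β; Nfkbia, Ccl2, Tapbp and Matn1 change with IL-1β after both viruses; Slc7a11, Slc16a1 and Ldha rise only in the GFP libraries; Csf1 rises only in the Cre libraries.

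Some matrix proteases also kept a smaller response, but the median response of their lists was not smaller after Cre. The median log2 fold change of the metalloproteinases tested was 0.32 after GFP and 0.97 after Cre (0.69 without Cre + IL-1β replicate 2). That of the ADAMTS proteases and TIMPs was 0.10 and 0.24. In each list 2 genes were kept and smaller. Of 15 matrix metalloproteinases tested, 6 rose after GFP and 8 after Cre, 3 differences were called as lower and 1 as higher (3 without Cre + IL-1β replicate 1 and 2 without Cre replicate 1). Mmp3, stromelysin 1, was at 1.81 and 2.71 CPM in GFP, 1783 and 1755 CPM in GFP + IL-1β, 2.95 and 2.92 CPM in Cre and 281 and 266 CPM in Cre + IL-1β. Its response after Cre was 6.54 (log2, SE 0.16) and smaller than after GFP, with a difference of -3.07 (SE 0.22, edgeR, adjusted p = 7.76e-06). Mmp13, the collagenase that cuts type II collagen, rose to 573 and 556 CPM in GFP + IL-1β and 236 and 158 CPM in Cre + IL-1β from between 46.5 and 48.4 CPM (difference -1.50, SE 0.21, edgeR, adjusted p = 0.00106). Mmp10, stromelysin 2, rose by 6.09 and 4.84 with no called difference (edgeR, adjusted p = 0.118). Of 18 ADAMTS proteases and TIMPs 5 rose and 3 fell after GFP (1 fell without GFP + IL-1β replicate 1), and 6 rose and 1 fell after Cre (2 fell without Cre + IL-1β replicate 1). In this list 4 differences were called as higher and 4 as lower. The aggrecanase Adamts5 rose by 2.52 after GFP and 1.08 after Cre (edgeR, adjusted p = 0.000996 for the difference).

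The protease inhibitors Timp1, Timp2 and Timp3 lost their response. Timp3, the inhibitor of MMPs and aggrecanases that sits in the matrix, was at 1527 and 1508 CPM in GFP, 396 and 403 CPM in GFP + IL-1β, 1536 and 1501 CPM in Cre and 1243 and 1248 CPM in Cre + IL-1β. IL-1β thus lowered it in both GFP libraries by a log2 fold change of -1.92, while after Cre it was -0.29 (SE 0.10, edgeR, adjusted p = 0.0520), and the difference was 1.64 (SE 0.14, edgeR, adjusted p = 2.44e-05). Timp1, which rose after GFP (1.08), did not pass the test after Cre (0.024), and Timp2, which fell after GFP (-0.47), was at 0.20 after Cre. The difference of Timp2 was not called without any one of the 4 GFP libraries (edgeR, adjusted p between 0.0588 and 0.108). The other lost genes that had fallen after GFP, named by the p of their difference, were the smooth muscle actin Acta2 (-1.42 after GFP and 0.084 after Cre), the Rac exchange factor Prex2 (-1.36 and 0.16), Lctl (-1.99 and -0.046) and the actin-binding Limch1 (-1.03 and 0.12).

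Oxidative defence and iron handling lost most of their rise. Of 29 genes tested, 22 rose after GFP, beside 15.2% of all genes, and 10 after Cre, beside 11.7%. The difference was called as lower for 20, beside 3.5% of all genes, and the median log2 fold change was 0.86 after GFP and 0.09 after Cre. Of the 29, 9 were lost, 2 turned and 9 were kept but smaller; 4 turned without Cre + IL-1β replicate 1 and 1 without GFP + IL-1β replicate 2. The median after Cre was 0.04 and 0.21 without Cre replicate 1 and 2, and 0.03 and 0.22 without Cre + IL-1β replicate 1 and 2. Slc7a11, the cystine importer that feeds glutathione synthesis, was at 20.7 and 22.2 CPM in GFP, 126 and 119.9 CPM in GFP + IL-1β, 19.5 and 19.1 CPM in Cre and 16.9 and 16.3 CPM in Cre + IL-1β. Only the 2 GFP + IL-1β libraries stood above the others, and the response was 2.52 after GFP and -0.22 after Cre (difference -2.74, SE 0.14, edgeR, adjusted p = 4.63e-07). Srxn1, sulfiredoxin, which restores oxidised peroxiredoxins, was at 190.0 and 193 CPM in GFP + IL-1β and 44.5 and 40.5 CPM in Cre + IL-1β, with 41.6 and 38.9 CPM in Cre (difference -1.76, SE 0.13, edgeR, adjusted p = 1.07e-05). Glutathione peroxidase 3, Gpx3, changed by 0.78 after GFP and -0.83 after Cre and so turned. Kept but smaller were the mitochondrial superoxide dismutase Sod2 (2.80 and 0.70), the ferritin heavy chain Fth1 (2.97 and 1.13) and the zinc importer Slc39a8 (5.62 and 2.49). Without Cre + IL-1β replicate 2, 9 of the 29 rose after Cre and the difference was called as lower for 19.

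Genes of glycolysis and lactate transport mostly rose after GFP and mostly did not after Cre. Of 26 genes tested, 18 rose after GFP, beside 15.2% of all genes, and 4 after Cre, beside 11.7%. After Cre 7 fell, beside 10.3%, and the difference was called as lower for 17, beside 3.5%. Of the 26, 10 were lost and 6 turned. The median log2 fold change was 0.64 after GFP and -0.16 after Cre. Slc16a1, the lactate transporter MCT1, was at 151 and 139 CPM in GFP, 517 and 484 CPM in GFP + IL-1β, 142 and 144 CPM in Cre and 106 and 107 CPM in Cre + IL-1β. Its level rose with IL-1β after GFP (1.78) and fell after Cre (-0.42, SE 0.094, edgeR, adjusted p = 0.00753), a fall that missed the threshold without Cre replicate 2 (-0.40, edgeR, adjusted p = 0.0521), and the difference was -2.21 (SE 0.13, edgeR, adjusted p = 1.31e-06). Ldha, the lactate dehydrogenase subunit that the study centres on, was at 1379.9 and 1256 CPM in GFP, 1954 and 1942 CPM in GFP + IL-1β, 1317 and 1491 CPM in Cre and 1101 and 1099 CPM in Cre + IL-1β. Both libraries with IL-1β were above both without it after GFP and below them after Cre, and the difference was -0.92 (SE 0.15, edgeR, adjusted p = 0.00351). Its fall after Cre (-0.35, edgeR, adjusted p = 0.0355) was lost without any one of the 4 GFP libraries (edgeR, adjusted p between 0.0574 and 0.0853), without Cre + IL-1β replicate 2 (edgeR, adjusted p = 0.0562) and without Cre replicate 2 (-0.25, edgeR, adjusted p = 0.257). Pfkfb3, the kinase that makes the activator of phosphofructokinase, changed by 0.76 and -0.52, the glucose transporter Slc2a1 by 0.45 and -0.55, and hexokinase 1, Hk1, by 1.11 and 0.14. Hk2, the inducible hexokinase, was at 231 and 227 CPM in GFP + IL-1β and 127 and 153 CPM in Cre + IL-1β, and its difference (-0.66, edgeR, adjusted p = 0.0204) was not called without any one GFP library or without Cre replicate 2 (edgeR, adjusted p between 0.0666 and 0.129). Without Cre replicate 2, 2 of the 26 glycolysis genes rose and 3 fell after Cre (median -0.08), the difference was called as lower for 13 and 3 turned. Without Cre replicate 1, 2 rose after Cre. The difference was called as lower for 10, 10 and 9 without GFP replicate 2, GFP + IL-1β replicate 1 and GFP + IL-1β replicate 2, with 5, 4 and 5 lost, and 3 turned without any one of the 4 libraries with GFP virus. Of 26 genes of the citrate cycle 2 rose and 4 fell after GFP, beside 15.2% and 11.7% of all genes, 1 rose and 7 fell after Cre, beside 11.7% and 10.3%, and no difference was called. After Cre 2 of these fell without Cre replicate 2, 5 without Cre + IL-1β replicate 2, 10 without Cre + IL-1β replicate 1 and 4 without any one of the 4 libraries with GFP virus. After GFP 8 fell without either Cre + IL-1β library and 2 without GFP + IL-1β replicate 1, and 1 rose without either Cre library or any one of the 4 libraries with GFP virus. The plot of single genes shows both lists.

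**Figure D3:**
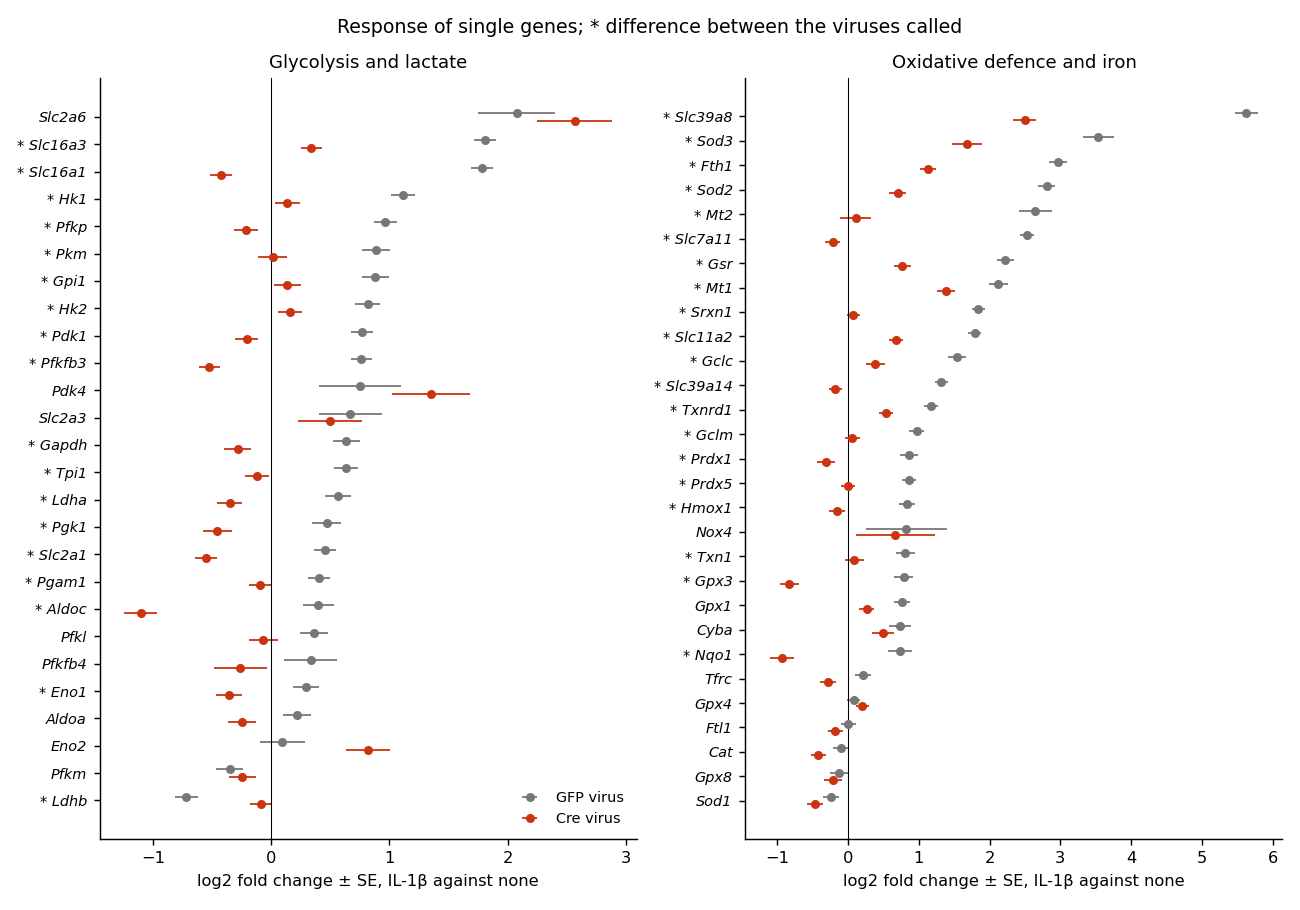
Log2 fold change with IL-1β (horizontal axes, with SE bars) after GFP virus (grey) and Cre virus (red) for the tested genes of glycolysis and lactate (left) and of oxidative defence and iron (right), with an asterisk where the difference was called. Most grey points lie above 0 and most red points near or below 0 on the left; on the right the genes highest after GFP stay above 0 after Cre at a smaller value.

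Other genes that lost their rise came from varied functions. Car9, carbonic anhydrase 9, was at 6.54 and 6.62 CPM in GFP, 67.0 and 64.8 CPM in GFP + IL-1β, 8.34 and 9.07 CPM in Cre and 10.1 and 10.9 CPM in Cre + IL-1β. Dgat2, which makes triglycerides, was at 158 and 147 CPM in GFP + IL-1β and between 22.2 and 26.3 CPM in the other 6 libraries. Both stood apart in the 2 GFP + IL-1β libraries, with differences of -3.05 (SE 0.17, edgeR, adjusted p = 6.84e-07) and -2.54 (SE 0.14, edgeR, adjusted p = 6.84e-07). The adhesion protein Clmp was lost likewise (1.97 after GFP and 0.12 after Cre). Of 15 genes of prostaglandin synthesis and receptors 9 rose after GFP and 3 after Cre (5 without Cre replicate 1), with 5 differences called as lower. The prostaglandin E synthase Ptges2 (2.05 and -0.10) was lost, while the cyclooxygenase Ptgs2 was kept and smaller (3.12 and 1.16). Of 11 genes of nitric oxide and arginine 4 rose and 4 fell after GFP (2 fell without GFP + IL-1β replicate 2), and 3 rose and 3 fell after Cre (5 fell without Cre + IL-1β replicate 1). The inducible nitric oxide synthase Nos2 reached 168 and 165 CPM in GFP + IL-1β and 7.47 and 7.19 CPM in Cre + IL-1β, from at most 0.353 CPM. Its difference (-4.41, SE 0.97, edgeR, adjusted p = 0.0198) rested on those few counts: without Cre replicate 1 it was 0.67 (edgeR, adjusted p = 0.803), and it was not called without GFP replicate 1 or 2 or GFP + IL-1β replicate 1 (edgeR, adjusted p between 0.0501 and 0.0562). Of 19 AP-1 and C/EBP factors 14 rose after GFP and 10 after Cre, with 6 differences called as lower (3, 3, 2 and 3 without GFP replicate 1, GFP replicate 2, GFP + IL-1β replicate 1 and GFP + IL-1β replicate 2); Junb was kept (2.25 and 2.02) and Cebpb was smaller (1.90 and 0.56).

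A short list of genes turned. Rbp4, the retinol carrier, rose by 0.65 after GFP and was at -1.34 after Cre, with 93.2 and 96.8 CPM in GFP + IL-1β, 20.6 and 21.9 CPM in Cre + IL-1β and between 50.1 and 61.9 CPM in the other 4 libraries. The opioid precursor Penk (0.75 and -0.97), the monocarboxylate transporter partner Emb (1.07 and -0.54) and the phosphodiesterase Pde11a (1.52 and -1.20) moved the same way. The small proteoglycans Dcn (0.88 and -0.71) and Lum (0.39 and -0.74), matrix genes that IL-1β raised after GFP, fell after Cre. Ccnd1, cyclin D1, moved the other way, with 109 and 95.0 CPM in GFP, 52.1 and 55.0 CPM in GFP + IL-1β, 137 and 139.6 CPM in Cre and 195 and 228 CPM in Cre + IL-1β. It was already higher in the Cre libraries without IL-1β, fell after GFP (-0.93) and rose after Cre (0.61). Hoxc8 (-0.95 and 0.41), Palm3 (-1.94 and 0.82), Sh3d19 (-0.49 and 0.65) and Phldb2 (-0.51 and 0.50) followed Ccnd1. The rise of Hoxc8 after Cre missed the threshold without Cre replicate 1 (0.40, edgeR, adjusted p = 0.0664) or 2 (0.43, edgeR, adjusted p = 0.0785), and that of Palm3 without Cre replicate 2 (0.69, edgeR, adjusted p = 0.103) or Cre + IL-1β replicate 2 (0.65, edgeR, adjusted p = 0.0837).

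Some responses appeared only with the Cre virus. Csf1, the macrophage colony-stimulating factor, was at 247 and 276 CPM in GFP, 249 and 231 CPM in GFP + IL-1β, 263 and 227 CPM in Cre and 476 and 462 CPM in Cre + IL-1β. The 2 Cre + IL-1β libraries stood above the other 6, which overlapped one another, and the response was -0.12 after GFP and 0.94 after Cre (difference 1.06, SE 0.15, edgeR, adjusted p = 0.00107). Tnfrsf11b, the RANKL decoy osteoprotegerin, rose by 0.72 after Cre and was at -0.070 after GFP. Of 21 cytokines and colony-stimulating factors tested these were the 2 gained, while 13 rose after GFP and 9 after Cre, beside 15.2% and 11.7% of all genes. The proteases Adamts8 (1.01 after GFP and 4.03 after Cre) and Adamts14 (-0.27 and 2.02), the ubiquitin ligase Mkrn2 (0.17 and 1.69), Zfp664 (0.24 and 1.51) and Tmem129 (-0.18 and 0.72) were gained as well; the difference of Adamts8 was not called without GFP replicate 2 (edgeR, adjusted p = 0.0756) or GFP + IL-1β replicate 1 (edgeR, adjusted p = 0.0555). Among the gained genes that fell after Cre were the endoplasmic oxidoreductase Ero1l (0.24 and -0.79), Higd1a (0.24 and -1.08), which hypoxia induces, Rtl3 (-0.27 and -1.47), the ectonucleotidase Nt5e (0.031 and -0.83) and Cd200 (0.36 and -1.74).

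Cxcl10, a T-cell attractant, was 1 of the 11 genes whose response was larger after Cre. It was at 0.258 and 0.247 CPM in GFP and 7.23 and 6.65 CPM in GFP + IL-1β, had no count in the 2 Cre libraries and was at 19.0 and 13.8 CPM in Cre + IL-1β. That is at least 248-fold higher with IL-1β after Cre, against a floor of 3 counts over the group, and both Cre + IL-1β libraries were above both GFP + IL-1β libraries. Eml5 (0.77 after GFP and 3.15 after Cre), the synuclein Sncg (1.07 and 1.70), the intermediate filament Nes (0.53 and 1.48) and the ferritin receptor Scara5 (0.55 and 1.15) were the others named by p, and their difference was not called without any one GFP library for Sncg (edgeR, adjusted p up to 0.0852) and Scara5 (edgeR, adjusted p up to 0.120), nor without GFP replicate 2, GFP + IL-1β replicate 1 or 2 or Cre replicate 2 for Nes (edgeR, adjusted p up to 0.0853). Rflna (-0.97 and -2.18) and the glycogen regulator Ppp1r3c (-0.49 and -1.48) were the 2 that fell further. The plot of list medians gathers the groups of genes.

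**Figure D4:**
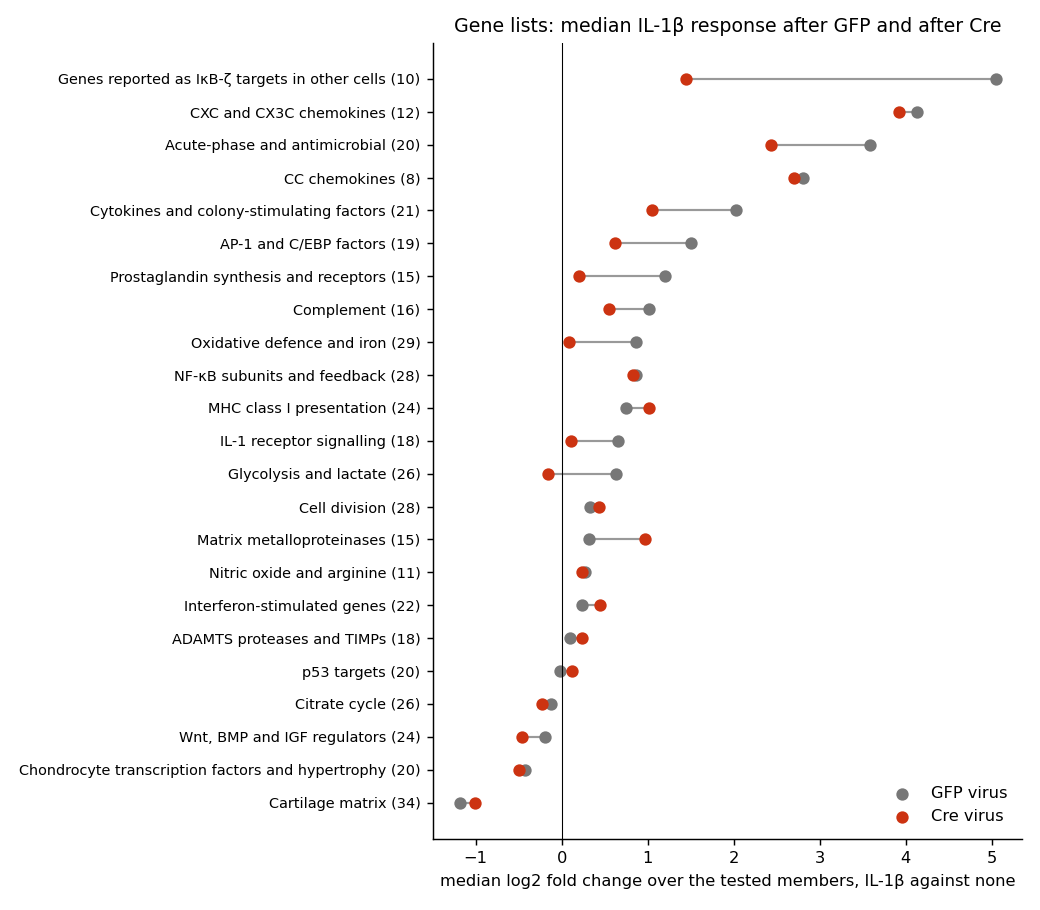
Median log2 fold change with IL-1β (horizontal axis) over the tested members of 23 gene lists (number tested in brackets) after GFP virus (grey) and Cre virus (red). The points nearly coincide for NF-κB feedback and lie close for CC chemokines and cartilage matrix, lie apart for acute-phase genes, prostaglandin synthesis and oxidative defence, and lie on opposite sides of 0 for glycolysis and lactate; medians of the acute-phase and CXC lists include genes with no count without IL-1β.

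Stretches of 7 promoters are shown so that the letters behind the motif shares given next can be read for genes of different classes. RefSeq promoters (GRCm38.p6, 250 bases before the start of the gene) were found for 10844 of the 15356 genes tested and searched on both strands for the κB consensus, for the hypoxia response core ACGTG and for the antioxidant response core TGACNNNGC. The stretches below run 5′ to 3′ on the strand of the gene, 60 bases each, with the match in capitals, and the name gives the class and the place. The first 5 hold a match to the κB consensus and the last 2 to the hypoxia core, with matches taken on either strand. They were picked among genes with a match, and genes for which none was found, such as Lcn2 and Saa3, are not shown. The hypoxia core was also found for Cxcl1 and Slpi, kept and smaller, and for Tnfaip3, kept with no called difference. The stretches shown therefore do not tie a motif to a class. The stretch of Nfkbia also holds a match to the antioxidant core, which does not overlap the κB match. The stretch of Slc16a1 holds one as well, on the opposite strand, which shares 1 base with the hypoxia match shown. The hypoxia match of Slc16a1 lies in CACGTG, which reads the same on both strands and is also the E-box.
Nfkbia, kept with no called difference, chr12:55492648-55492707, minus strand: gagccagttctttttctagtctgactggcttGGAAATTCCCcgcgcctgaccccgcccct
Chil1, kept and smaller, chr1:134181952-134182011, plus strand: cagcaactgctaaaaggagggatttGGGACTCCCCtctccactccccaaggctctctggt
Steap4, kept and smaller, chr5:7960222-7960281, plus strand: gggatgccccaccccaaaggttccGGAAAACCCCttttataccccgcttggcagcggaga
Csf1, gained, chr3:107760589-107760648, minus strand: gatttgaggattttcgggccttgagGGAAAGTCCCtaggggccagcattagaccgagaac
Cxcl10, kept and larger, chr5:92348958-92349017, minus strand: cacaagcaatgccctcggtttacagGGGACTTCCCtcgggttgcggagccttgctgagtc
Car9, lost, chr4:43506966-43507025, plus strand: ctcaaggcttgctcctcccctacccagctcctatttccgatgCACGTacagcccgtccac
Slc16a1, turned, chr3:104638438-104638497, plus strand: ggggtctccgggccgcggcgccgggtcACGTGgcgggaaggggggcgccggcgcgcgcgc

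A match to the κB consensus was present for 5.51% of the genes tested that had a promoter, where a match in any promoter of a gene counted. It was in 3.9% of all 32851 single RefSeq promoters. The former is a share of genes and the latter of promoters, so they are unlike units. Among genes that rose after GFP it was in 9.97% of those kept with no called difference, 12.4% of those kept and smaller, 8.91% of those lost and 5% of those turned, and among genes that fell in 7.07%, 8.89%, 6.67% and 8.33%. It was in 15.6% of the genes gained and higher and 4.55% of those gained and lower. The hypoxia core was present for 24.9% of the genes tested and in 16.6% of single promoters, again unlike units. Among genes that rose after GFP it was in 22.5% of those kept with no called difference, 24.8% of those kept and smaller, 36.6% of those lost and 40% of those turned, and among genes that fell in 24.8%, 17.8%, 17.3% and 33.3%. It was in 13.3% of the genes gained and higher and 40.9% of those gained and lower. The antioxidant core was in 14% of all genes tested. Among genes that rose it was in 14.1%, 13.2%, 14.4% and 15% of the same classes, among genes that fell in 12.5%, 17.8%, 18.7% and 25%, and in 20% of the genes gained and higher and 13.6% of those gained and lower. The turned and gained classes are small, with a promoter for 40 and 12 of the turned genes that rose and fell and for 45 and 22 of the gained genes. These shares are descriptions without a test, base composition was not compared, and a match is not a site.

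Cre virus was also given to the Ldha f/f and Nampt f/f cells, where another gene is deleted, and there too the response to IL-1β differed between Cre and GFP. In a fit on the 24 floxed libraries the difference was called for 2570 of 16727 genes in the Ldha line (15.4%) and 3800 in the Nampt line (22.7%). In that same fit it was called for 1773 in the Nfkbiz line. The 797 genes and the classes given above come from the fit on 8 libraries, so their number cannot be set against those of the other lines. The difference of the Nfkbiz line minus the mean of the other 2 lines, tested over the 24 libraries with the library set as a term, was called for 2278 genes (13.6%), and for 2612 without Cre + IL-1β replicate 2 of the Nfkbiz line. Of the 369 lost genes 184 (49.9%) differed from the other lines in this test with the same sign, while 158 had a called difference of the same sign in the Ldha line and 169 in the Nampt line. Of the 244 genes kept and smaller 111 differed from the other lines, and 145 (59.4%) had the same called difference in the Ldha line and 147 (60.2%) in the Nampt line. Both classes were chosen by a called difference in the Nfkbiz line, and that difference is itself a term of the test against the other lines. Their share with the same sign in that test was therefore raised by the choice and does not measure how particular they are to the line. Both libraries of each Nfkbiz f/f group belong to the second of 2 sets of sample names in the labels, whereas each group of the other lines holds 1 of each set; with the second set alone the test across lines called 506 genes.

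Values of the Nfkbiz line in this paragraph and its plot come from the fit on 8 libraries. Those of the other lines and of the test against their mean come from the fit on 24 libraries, so the errors differ in kind. Lcn2 was among the genes whose difference was larger in the Nfkbiz line. It was -4.36 (SE 0.22) in the Nfkbiz line, -0.78 (SE 0.16) in the Ldha line and -0.52 (SE 0.16) in the Nampt line, and -3.70 (SE 0.19, edgeR, adjusted p = 2.64e-11) against their mean. Against the mean of the other lines the difference was -3.37 for Saa3, -2.97 for Chil1, -2.70 for Hp, -2.38 for Car9 and -1.86 for Dgat2, each called. Chil1, Car9, Dgat2 and Acta2 were named by the small p of their difference in the Nfkbiz line, itself a term of this test. That choice favours large values here, which therefore do not measure how particular these genes are to the line. Whether these calls hold with the second library set alone was not tested. Acta2, with 1.51 in the Nfkbiz line, was at -0.17 and -0.10 in the Ldha and Nampt lines, neither called there. For other genes the test against the other lines was not called. For Mmp3 they were -3.07, -1.99 and -2.96 in the Nfkbiz, Ldha and Nampt lines, with -0.59 against the mean of the others (SE 0.32, edgeR, adjusted p = 0.257). For Slc7a11 they were -2.74, -2.13 and -2.52 (edgeR, adjusted p = 0.0672 against the mean), and for Avpr1a -2.64, -2.39 and -2.57 (edgeR, adjusted p = 0.591). Nfkbiz itself had a called difference in each line, -2.03, -1.42 and -1.17. Cxcl10, larger after Cre in the Nfkbiz line, was smaller after Cre in the Ldha line (-1.45) and the Nampt line (-1.05). The plot across lines shows 20 genes.

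**Figure D5:**
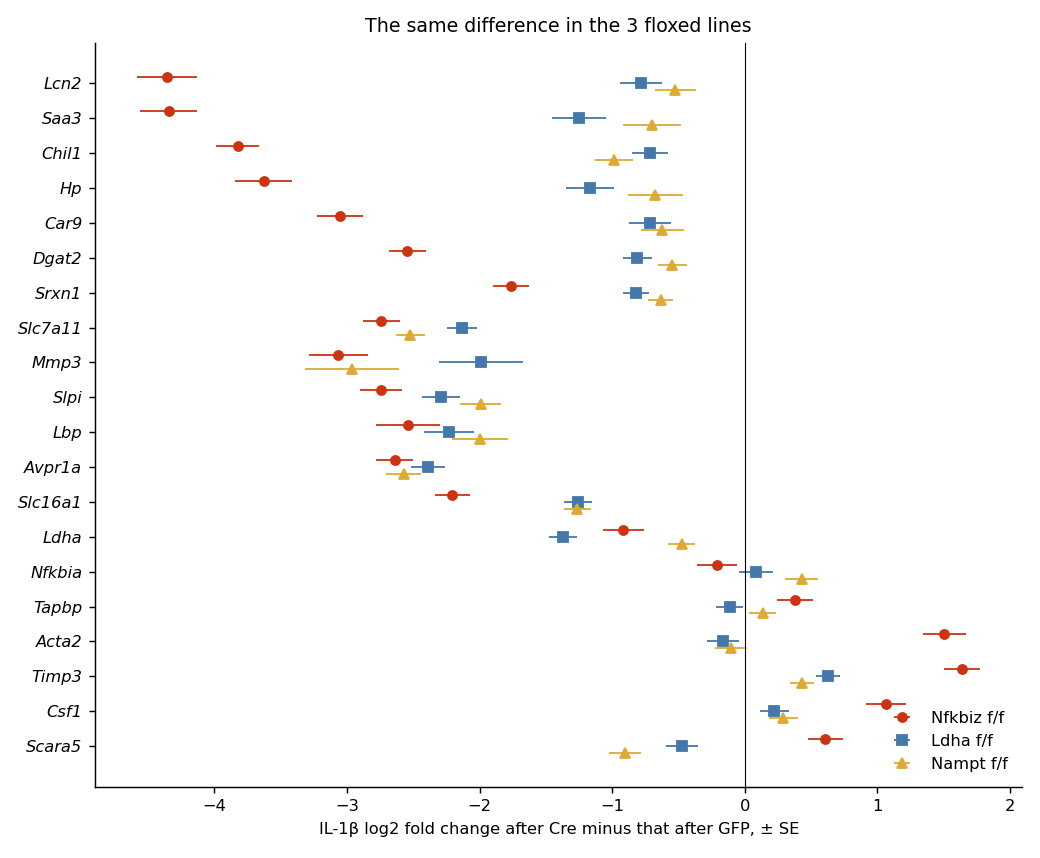
Log2 fold change with IL-1β after Cre minus that after GFP (horizontal axis, with SE bars) for 20 genes in the Nfkbiz f/f (red circles), Ldha f/f (blue squares) and Nampt f/f (yellow triangles) lines. From Lcn2 to Srxn1 the Nfkbiz line lies further from 0 than the other 2, for Slc7a11, Mmp3, Lbp and Avpr1a all 3 lines lie at or below -1.99, and for Acta2 and Csf1 the Nfkbiz line lies away from the others above 0.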

How the data were processed

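Per the labels and the study's methods, RNA of sternal chondrocytes infected for 24 h and then treated for 24 h was sequenced after ribosomal RNA removal, and reads were aligned with STAR to GRCm38 and counted per gene with featureCounts; the authors deposited 1 table per library. Its count column holds the raw counts the authors obtained from uniquely aligned reads, and this column was tested. The deposited CPM column was made by the authors from the counts and the library total, and the deposited RPKM column from counts, total and gene length; both follow from the counts in the 24 floxed libraries and were not tested. The 8 wild-type libraries were not used.

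Symbols came from GENCODE M21 (40340 of 41388 genes). After leaving out 355 ribosomal RNA genes, those over 1 CPM in at least 1 library were tested in edgeR 4.0.16 (TMM scaling, quasi-likelihood test, R 4.3.3), with 4 residual degrees of freedom. Printed CPM were computed from the counts with TMM-scaled library totals. An error is the log2 fold change divided by the square root of F. Alternatives used DESeq2 1.42.0, limma 3.58.1 (voom with quality weights), other filters and scaling, and each library left out. The scripts were tested on simulated data. Counting intervals are exact and at 95%, and they and the floor of 3 counts cover counting error only. Precision rests on 2 libraries per group.

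Named were Nfkbiz, the genes the study names for its sequencing, the 8 genes of smallest p after Cre in each direction, the 5 of smallest p in each class and direction, and members of the lists. The comparison, the lists and the tests were chosen with earlier results of these data known. 1 gene that this rule names is not reported here. Which list members to name was settled after their values were seen.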

Additional observations from a re-analysis of the deposited data

Results flagged for a closer look

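A difference between groups set apart the 797 genes whose response to IL-1β differed between Cre and GFP virus in Nfkbiz f/f cells, and the 2278 genes whose difference departed from the mean of the Ldha f/f and Nampt f/f lines, both by the interaction terms of edgeR. Among the former, 69 genes turned, with called responses of opposite sign. The genes of smallest p in that class that rose after GFP and fell after Cre had differences of -2.21 (Slc16a1), -1.99 (Rbp4), -1.73 (Penk), -1.61 (Emb) and -2.72 (Pde11a) on the log2 scale. Those that fell after GFP and rose after Cre had differences of 1.54 (Ccnd1), 1.35 (Hoxc8), 2.76 (Palm3), 1.14 (Sh3d19) and 1.01 (Phldb2). Groups of 2 libraries are too small to look for single libraries that stand apart gene by gene.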

How the results depend on the processing

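No paired analysis was possible because the labels do not pair the libraries: replicate numbers follow the order of deposit. The counts of genes called after Cre, after GFP and in the difference, of kept, lost, turned and gained genes, of genes chosen in the other lines and of the test across lines moved by less than 1.5 times with DESeq2, with limma voom, with RLE scaling, with filterByExpr and without ribosomal protein genes. The same held, for all but the test across lines, without mitochondrial genes and Gm26917, an alternative chosen after seeing the data. Without a filter on low counts the difference was called for 1325 genes and 291 were gained. When a change of at least 1 on the log2 scale was asked for as well, 865 genes were called after Cre, 1490 after GFP and 414 in the difference, and there were 519 kept, 212 lost, 6 turned, 45 gained, 494 of the other lines' genes and 938 in the test across lines. Fitted on the 4 Cre libraries alone, 2089 genes were called after Cre, and on the 4 GFP libraries alone 5686 after GFP. The fit on 8 libraries called 3391 and 4120, so how far these counts lie apart depends on the fit. With the 24 floxed libraries in one model the difference was called for 1773 genes, and with the second library set alone the test across lines called 506. With 1 library left out in turn, counts ranged from 1523 to 4605 after Cre, from 2487 to 4998 after GFP, from 344 to 1892 in the difference, from 1168 to 2352 for kept, 159 to 629 for lost, 28 to 148 for turned, 41 to 690 for gained, 1304 to 2838 for the other lines' genes and 1729 to 3062 across lines. The difference of Nos2 ranged from -5.37 to 0.67 and reversed at 0.67 without Cre replicate 1. Of 181 called values of genes named in the report 180 were also called with DESeq2 and 180 with limma voom. The 2 libraries per group and, for Nos2, Il6, Cxcl2, Cxcl3, Il12b and Cxcl10, the few counts without IL-1β limit what can be told apart; the cause of these shifts was not tested beyond the number of libraries each fit holds.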
